A study of Mus musculus with 8 samples.

Results

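Type I interferons act on nearly every cell, and the genes they switch on limit viral replication, change antigen presentation and tune the interferon response itself. The 33 mouse genes described here were listed by name as interferon-stimulated genes, with no threshold on their values, and all 33 were found by symbol among the 32285 genes of the count tables. They were followed in immune cells of the brain from 8 single-cell libraries, 1 for each of 2 genotypes in 4 conditions. WT mice were C57BL/6J, bought from a commercial breeder, and App NL-G-F mice, which carry a humanized amyloid-β sequence with the Swedish, Arctic and Iberian mutations knocked in to the App locus, came from another colony. Source and genotype therefore cannot be told apart. Control mice drank water. Acute colitis mice drank 2% DSS for 7 days, and chronic colitis mice had 3 courses of 2% DSS of 5 days each, alternating with water. Food allergy mice were sensitized to OVA and then given it by mouth. All mice were perfused, had received an antibody against CD45 into the blood, and were labelled as 16 weeks old (the study's methods give 3 months). CD45.2+ cells were sorted after a Percoll step and pooled by hashtag antibodies, so each library holds several mice.

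In the usual course, a receptor of the chains Ifnar1 and Ifnar2 activates the kinases Jak1 and Tyk2, which phosphorylate Stat proteins such as Stat2. With Irf9 these form a factor that binds interferon-stimulated response elements in promoters. Irf7, itself induced, then amplifies interferon production. Among the products, the Ifit proteins and Zbp1 bind foreign nucleic acid, Ifih1 and Dhx58 sense or shape the sensing of double-stranded RNA, and the Oas enzymes make an oligoadenylate messenger that starts RNA decay. Isg15 is a ubiquitin-like modifier, and Usp18 removes it and restrains receptor signalling. Bst2 tethers virions to the cell surface, and Rsad2 with Cmpk2 yields chain-terminating nucleotides. Ly6a, the stem cell antigen Sca-1, is interferon-induced but also marks lymphocyte and progenitor states.

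Promoters of these genes were searched for the core letters of the response element, and 8 stretches are shown because they hold a match and because several of these genes are described by library further on. The RefSeq promoter table (GRCm38.p6, 250 bases before to 50 after each gene start) had an entry for 24 of the 33 genes. The core motif GAAANNGAA, searched on both strands, matched in 13 of the 24 (54.2%) and in 9.76% of all 27025 symbols with a promoter of this length. The motif TTCNNNGAA of Stat dimers, also searched on both strands, matched in 5 of the 24 (20.8%) and in 9.55% of all symbols. Both motifs can share letters. Capitals mark the matches of GAAANNGAA or of its reverse complement, each sequence is written 5′ to 3′ along the gene's own strand, and it runs up to 40 bases to either side of the first match, ending at the gene start at the latest.
Bst2: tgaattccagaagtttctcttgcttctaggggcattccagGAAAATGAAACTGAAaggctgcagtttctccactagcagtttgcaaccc
Isg15: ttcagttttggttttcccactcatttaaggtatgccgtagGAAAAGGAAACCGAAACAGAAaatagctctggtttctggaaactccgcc
Trim30a: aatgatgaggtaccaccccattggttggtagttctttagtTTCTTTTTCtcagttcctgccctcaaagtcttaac
Slfn5: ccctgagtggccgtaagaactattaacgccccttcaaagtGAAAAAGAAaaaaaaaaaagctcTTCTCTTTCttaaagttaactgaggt
Slfn8: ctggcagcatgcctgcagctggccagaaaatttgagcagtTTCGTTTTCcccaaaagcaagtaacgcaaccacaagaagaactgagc
Stat2: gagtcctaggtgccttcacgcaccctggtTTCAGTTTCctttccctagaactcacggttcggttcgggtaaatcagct
Oas1a: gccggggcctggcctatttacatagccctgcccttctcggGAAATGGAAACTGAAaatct
Ifit3: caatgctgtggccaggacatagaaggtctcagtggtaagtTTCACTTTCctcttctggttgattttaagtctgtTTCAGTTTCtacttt
The stretches lie at chr8:71537554-71537642 (minus strand, Bst2), chr4:156200848-156200936 (minus strand, Isg15), chr7:104465194-104465268 (minus strand, Trim30a), chr11:82951907-82951995 (plus strand, Slfn5), chr11:83020811-83020897 (minus strand, Slfn8), chr10:128270248-128270325 (plus strand, Stat2), chr5:120907526-120907585 (minus strand, Oas1a), chr19:34583334-34583422 (plus strand, Ifit3) in GRCm38.p6, upstream of the listed gene start. Matches run into each other in Bst2, Isg15 and Oas1a. The position of the first match lay between 20 (Oas1a) and 221 bases (Stat2) before the start. A match is a run of letters and was not tested as a binding site. Several members lie next to each other: Ifit2, Ifit3 and Ifit1 within 99 kb of chromosome 19, Oas2, Oas3 and Oas1a within 177 kb of chromosome 5, Oasl2 and Oasl1 within 41 kb of chromosome 5, and Rsad2 and Cmpk2 within 37 kb of chromosome 12. Reads from near-identical copies (Ifit3 with Ifit3b, Oas1a with its Oas1 neighbours, Ly6a with other Ly6 genes, and the Slfn and Trim30 families) may have been lost or split in counting.

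The libraries held from 4877 to 7199 cells and from 25621465 (WT acute colitis) to 54618574 UMIs (App NL-G-F acute colitis) in cells. A UMI marks 1 captured transcript at its 5′ end, so counts scaled to the UMIs of a library and type (CPM) are comparable between genes without division by length. Of 50087 cells, 46935 passed a gate on markers of their own type and fell into 24 types, of which 17 were deep enough to be tested. By their markers the gated types were not only mature immune cells. Gated cells included early stages: 4192 developing B cells, 2383 neutrophil precursors, 746 hematopoietic progenitors and 390 erythroid cells. There were also 296 fibroblasts. Where cells of any type came from was not tested. Microglia were only 74 cells and are not tested. Any pair of libraries shared between 34 and 72 cell barcodes. The 30 hashtag groups, not tied to animals by the labels, divided into 14 with a low and 16 with a high level of immediate-early genes (619.0 to 1692.8 against 3110.2 to 5958.7 CPM in T cells), and every library had groups of both kinds. In droplets without cells the 33 genes summed to between 1198.1 (WT chronic colitis) and 2294.9 CPM (WT control), so a low level in a cell type can come from free RNA.

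Over all gated cells the 33 genes took 494309 of 285678725 UMIs, a sum of 1730.3 CPM, of which Ly6a, Ifi27l2a and Bst2 held 51.6%. The sum was highest in plasmacytoid dendritic cells, the main producers of type I interferon, at 6141.4 CPM (5158.8 to 7540.0 over the 8 libraries). CD4 T cells followed at 4284.7 CPM (3395.9 to 4637.4), so their libraries did not overlap with those of plasmacytoid dendritic cells. Macrophages reached 3756.5 CPM (2595.9 to 4634.8) and CD8 T cells 3488.9 CPM (2538.1 to 4348.2), and the libraries of these and of CD4 T cells overlapped. Monocytes, at 2683.8 CPM, had the widest relative spread of these, from 1420.0 to 4609.6 CPM. B cells had 1724.5 CPM, NK cells 1665.0 CPM and developing B cells 828.8 CPM. The lowest sums were those of basophils (541.7 CPM), neutrophil precursors (579.1 CPM) and neutrophils (668.8 CPM), all under the sum in droplets without cells. Single genes set part of this order. Bst2 gave 3789.2 CPM of the plasmacytoid sum, and Ly6a gave 2739.8 CPM of the 3575.6 CPM in mast cells and 1771.0 CPM of the 2459.5 CPM in plasma cells. Without Ly6a, Ifi27l2a and Bst2, a choice made after these values had been seen, the other 30 genes gave another order. They summed to 2209.5 CPM in erythroid cells, 2170.2 CPM in migratory dendritic cells, 1999.8 CPM in CD8 T cells and 1836.2 CPM in macrophages. Plasmacytoid dendritic cells fell to rank 12 (1211.9 CPM) and plasma cells to rank 22 (351.3 CPM). Single genes set part of this order too, since Isg20 (1148.9 CPM) and Isg15 (531.6 CPM) gave most of the erythroid sum. Erythroid cells (390) reached 20 cells only in the 4 App NL-G-F libraries, and migratory dendritic cells (176) in 4 libraries.

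**Figure D1:**
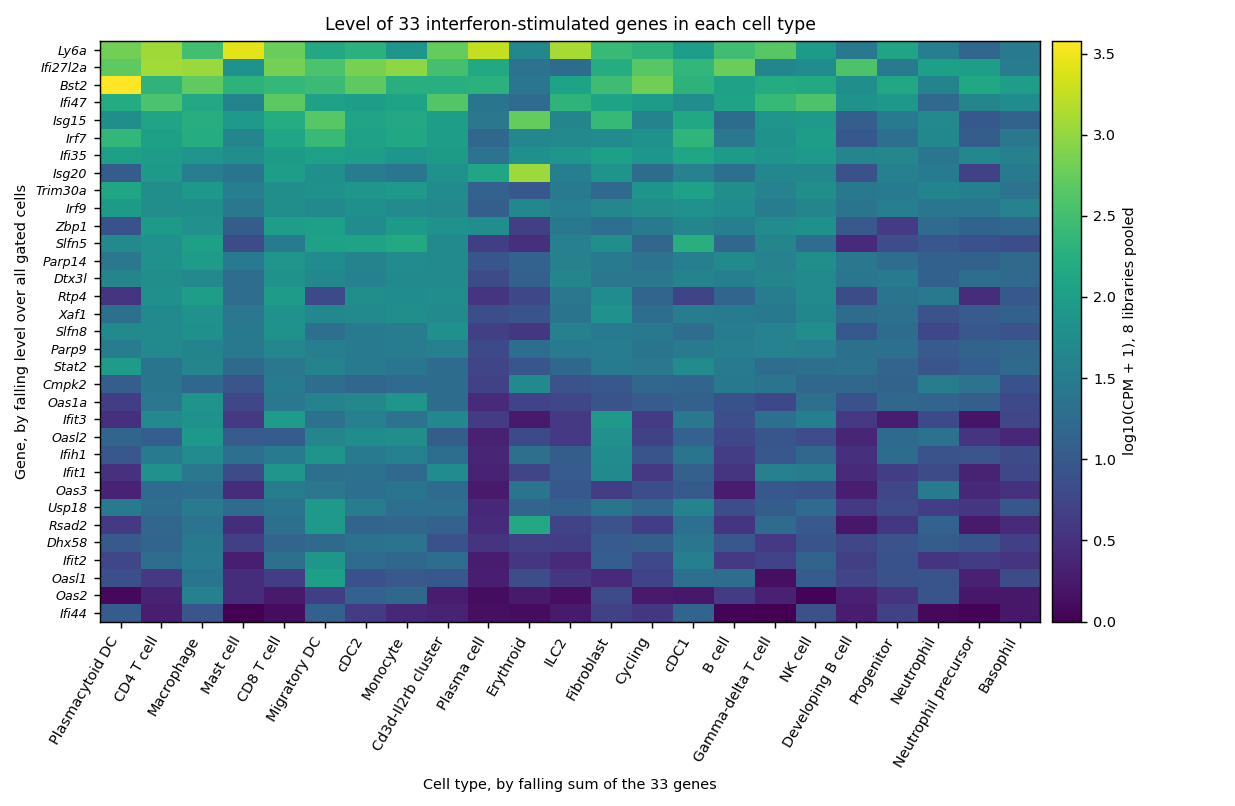
Level of each of the 33 genes (rows, by falling level over all gated cells) in 23 cell types (columns, by falling sum), as log10 of CPM + 1 with the 8 libraries pooled. Bst2 in plasmacytoid dendritic cells (3789.2 CPM) and Ly6a in mast cells (2739.8 CPM) are the brightest cells, and Ifi44 is near 0 in most types.

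The members differed in where they were highest. Of the regulators, Irf7 was led by migratory (265.3 CPM), plasmacytoid (234.4 CPM) and conventional type 1 dendritic cells (217.3 CPM), while Stat2 (92.7 CPM) and Irf9 (86.8 CPM) were led by plasmacytoid dendritic cells. Migratory dendritic cells had the highest levels of Oasl1 (104.1 CPM), Zbp1 (102.3 CPM), Usp18 (83.3 CPM), Ifit2 (77.0 CPM) and Ifih1 (69.7 CPM). CD8 T cells led for Ifi47, an interferon-inducible GTPase, at 480.2 CPM, and for Ifit3 (92.1 CPM) and Ifit1 (72.4 CPM), Dtx3l (65.9 CPM), Slfn8 (64.8 CPM) and Oas3 (30.7 CPM). Macrophages led for Rtp4 (97.1 CPM), Parp14 (91.8 CPM), Oasl2 (80.1 CPM), Xaf1 (68.3 CPM), Oas2 (36.3 CPM) and Dhx58 (26.7 CPM), and Oas1a was at 71.6 CPM in monocytes and 69.5 CPM in macrophages. Trim30a was led by plasmacytoid dendritic cells (129.4 CPM), Slfn5 (179.3 CPM), Ifi35 (129.0 CPM) and Ifi44 (13.8 CPM) by conventional type 1 dendritic cells, and Parp9 by CD4 T cells (47.0 CPM). Erythroid cells led for Isg20, an exonuclease, at 1148.9 CPM, for Isg15 (531.6 CPM), Rsad2 (142.5 CPM) and Cmpk2 (51.3 CPM). Plasma cells were the lowest of the 23 types for 15 of the 33 genes. CPM are shares of all UMIs of a type, and the leading genes of plasma cells were Jchain and immunoglobulin variable genes. The part of those transcripts in the low ranks was not tested. Ifi44 had the lowest level over all cells, at 2.1 CPM.

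The 8 most abundant members differed in how widely they ranged over the libraries of the tested type where each was highest, from Ifi47 and Bst2, which varied little, to Isg15, which varied most. Ly6a, a surface antigen, was at 1421, 1666, 1333 and 1424 CPM in plasma cells of control, acute, chronic and allergy WT mice, and at 1799, 1744, 2218 and 2222 CPM in App NL-G-F mice in the same order. All 4 App NL-G-F libraries were above all WT libraries for Ly6a in plasma cells. Yet this difference did not pass edgeR's quasi-likelihood test across genes (log2 fold change 0.74, SE 0.37, adjusted p = 0.518). The fitted change uses TMM scaling and the printed CPM do not, so the values need not match. Ifi27l2a in CD4 T cells was at 638, 1661, 1095 and 1001 CPM in WT and at 1343, 1072, 1149 and 1443 CPM in App NL-G-F mice, in the same order of conditions. WT control stood lowest there, and the other libraries overlapped. Bst2 in plasmacytoid dendritic cells was at 4058, 3511, 3569 and 3548 CPM in WT and at 4140, 3644, 3559 and 4157 CPM in App NL-G-F mice. Ifi47 in CD8 T cells was at 545, 428, 471 and 444 CPM in WT and at 522, 420, 483 and 440 CPM in App NL-G-F mice. In both genes the genotypes overlapped, and control was the highest WT library. Isg15 in macrophages was at 113, 114, 91.1 and 284 CPM in WT and at 243, 154, 205 and 105 CPM in App NL-G-F mice, with food allergy highest in WT and lowest in App NL-G-F. Irf7 in plasmacytoid dendritic cells was at 242, 187, 278 and 298 CPM in WT and at 280, 132, 243 and 319 CPM in App NL-G-F mice. Acute colitis was the lowest and food allergy the highest library of each genotype for Irf7. Ifi35, a partner of the regulator Nmi, ranged in conventional type 1 dendritic cells from 116 to 162 CPM in WT and from 116 to 148 CPM in App NL-G-F mice, and Isg20 in plasma cells from 111 to 142 and from 101 to 138 CPM.

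Within a type the signal was uneven over cells. With each cell thinned to 1500 UMIs, 60.8% of plasmacytoid dendritic cells had UMIs of at least 3 of the 33 genes, as did 55.8% of CD4 T cells, 54.8% of macrophages and 51.0% of CD8 T cells. The share was 5.75% in basophils and 6.33% in neutrophil precursors, and 774 neutrophils and 693 B cells were too shallow to be thinned. These shares describe cells with a UMI, with counting error only. The tenth of the cells with most UMIs of the other 30 genes held from 34.9% (plasmacytoid dendritic cells) to 56.5% of them (migratory dendritic cells).

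**Figure D2:**
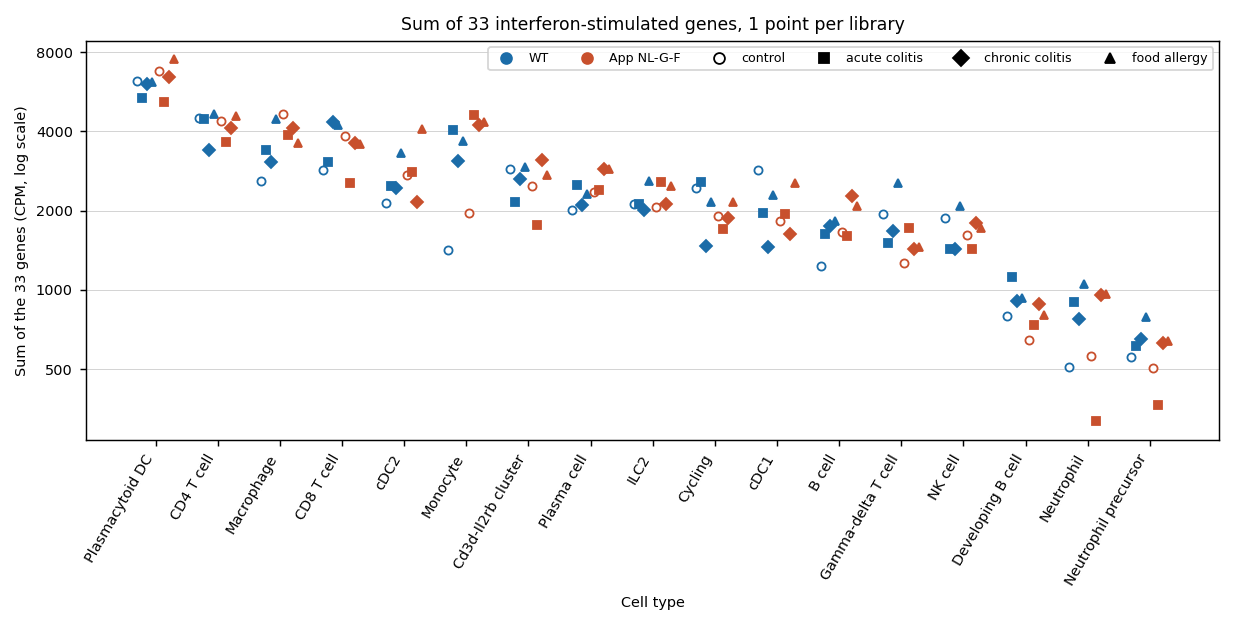
Sum of the 33 genes in CPM (log axis) in the 17 tested cell types, 1 point per library, coloured by genotype and shaped by condition. Plasmacytoid dendritic cells lie between 5158.8 and 7540.0 CPM, the genotypes overlap in every type, and both control libraries of monocytes lie below the treated ones.

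To ask whether the App NL-G-F genotype goes with a different interferon signature, the 4 App NL-G-F libraries were compared with the 4 WT libraries in an additive fit with the conditions (edgeR's quasi-likelihood test on UMI sums per library, Benjamini-Hochberg adjusted over all genes of a type). The sum of the 33 genes overlapped between genotypes in all 17 types, and the ratio of App NL-G-F to WT means ran from 0.765 in gamma-delta T cells to 1.24 in monocytes, with a median of 0.965. Between 18 and 33 members were deep enough to be tested per type, which gave 473 tests. Of these, 1 passed an adjusted p of 0.05 (0.211%), beside 0.204% of all 150212 tests over genes and types. At an unadjusted p under 0.05, 32 tests were higher (6.77%) and 34 lower (7.19%) in App NL-G-F mice, beside 3.1% and 3.93% of all tests over genes. The median log2 fold change of the members ran from -0.37 in gamma-delta T cells to 0.22 in B cells, above 0 in 8 of 17 types. The gene called was Ly6a in NK cells, where 0.466% of all genes were called lower. Ly6a was at 102, 95.7, 75.8 and 199 CPM in NK cells of control, acute, chronic and allergy WT mice, and at 38.4, 67.4, 59.8 and 102 CPM in App NL-G-F mice. The App NL-G-F library was the lower of the pair in each condition, but the genotypes overlapped (log2 fold change -0.76, SE 0.14, adjusted p = 0.0467). In these NK cells immediate-early genes were at 1695.1 to 2168.1 CPM in App NL-G-F and 3217.4 to 4893.2 CPM in WT libraries and neutrophil markers at 196.0 to 872.4 and 16.2 to 195.6 CPM, and their part was not tested. This call was lost with DESeq2, without the marker gate and with genotype alone. Beside the comparison, the immediate-early genes, which rise within minutes of handling or stimulation, were called lower in App NL-G-F mice in 36 of 170 tests in 9 types and higher in 0, and their median was below 0 in all 17 types. Their part in the members' values was not tested.

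Each condition was compared with control over both genotypes, 2 libraries against 2, in the same fit, and the 3 comparisons share their control libraries. In acute colitis 15 of 473 tests of members passed (3.17%, 13 higher and 2 lower, in 3 types), beside 0.578% of all tests. In chronic colitis 8 passed (1.69%, 5 higher and 3 lower, in 5 types), beside 0.403% of all tests. In food allergy 13 passed (2.75%, all higher, in 2 types), beside 0.248% of all tests. Over the 4 comparisons 18 members were called at least once, in 37 calls, of which 25 were in monocytes and 6 were of Ly6a. Isg20, Ifit1, Irf9, Oasl1, Zbp1, Ifi44, Ifih1, Dhx58, Stat2, Parp9, Dtx3l, Trim30a, Slfn8, Ifi35 and Ifi47 were called in none. The counts rest on single libraries. Without App NL-G-F control they were 29, 31 and 28, and without WT control the chronic colitis count was 2. Without either acute colitis library the acute count was 6, without WT chronic colitis the chronic count was 4 and without App NL-G-F chronic colitis 2, and without WT food allergy the allergy count was 1.

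**Figure D3:**
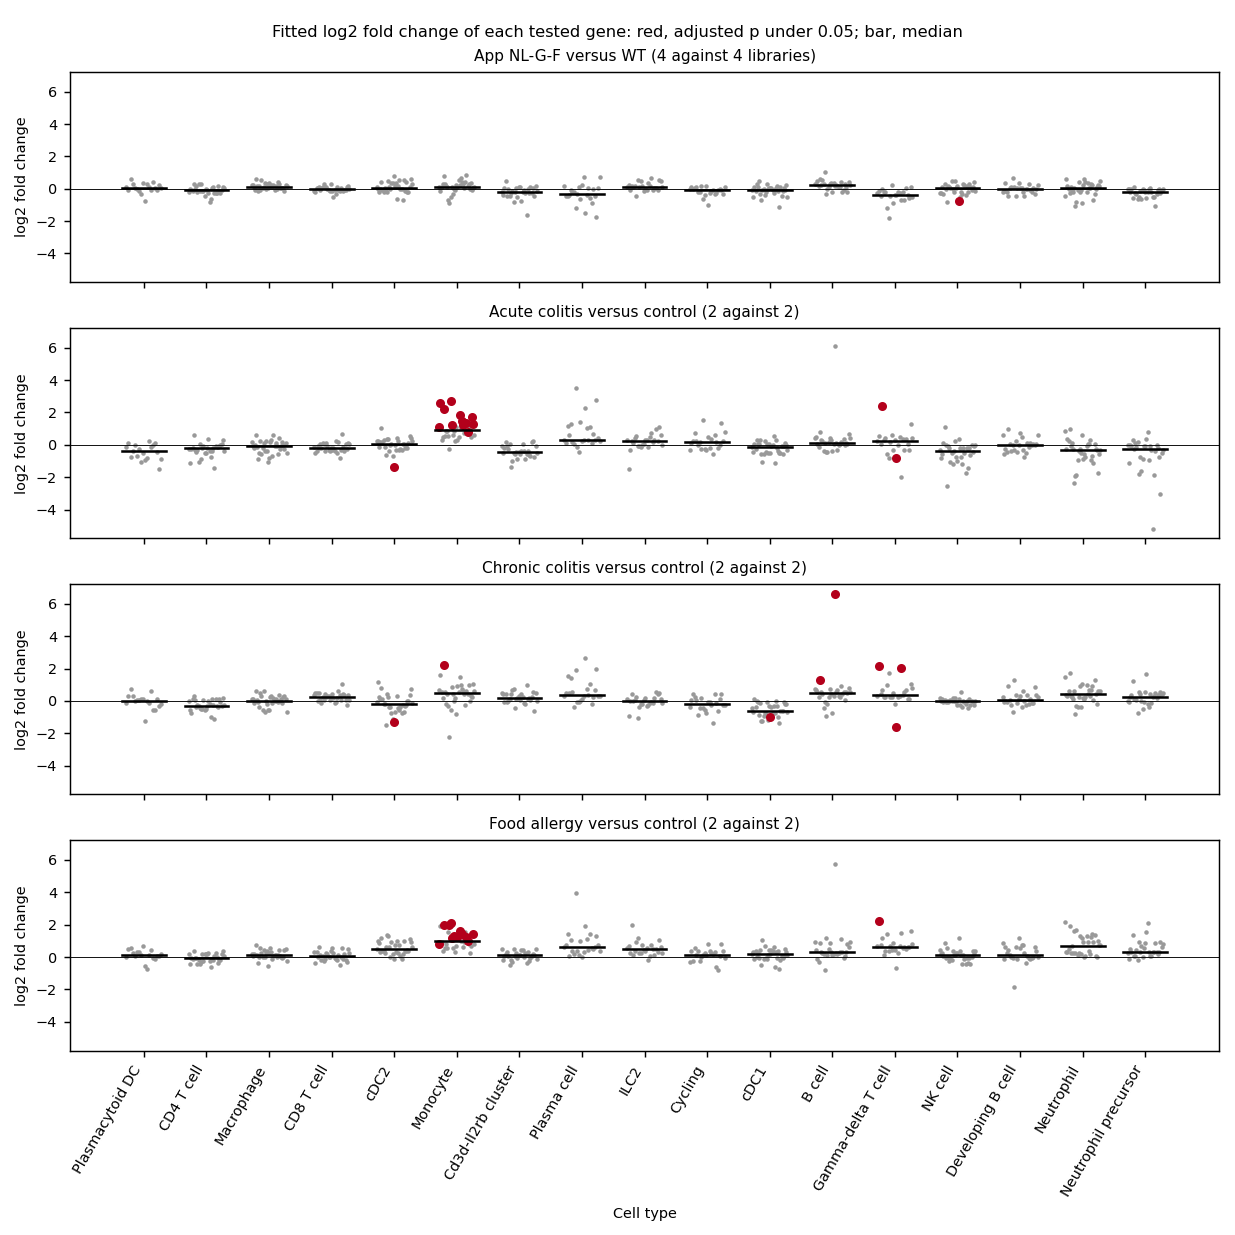
Fitted log2 fold change of each tested member in 17 cell types for the 4 comparisons, with members past an adjusted p of 0.05 in red and the median as a bar. Red points gather in monocytes in acute colitis and food allergy (12 of 32 members in each), and the far point in B cells is Oas2, which had no UMIs in either control library.

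In monocytes, which enter the brain from the blood, 12 of 32 tested members rose in acute colitis, 12 in food allergy and 1 in chronic colitis. Their sum was 1420.0 CPM in WT control and 1965.3 CPM in App NL-G-F control, against 4039.0 and 4609.6 CPM in acute colitis, 3096.4 and 4234.3 CPM in chronic colitis and 3681.1 and 4335.3 CPM in food allergy (WT and App NL-G-F). The control libraries did not overlap with any treated library, and the ratios of the means were 2.55, 2.17 and 2.37. In acute colitis 12 of 32 tested members were called higher and 0 lower, where 2.33% of all genes were called higher, and the median log2 fold change of the members was 0.91 against 0.02 for all genes. In food allergy 12 of 32 were called higher, beside 0.550% of all genes, with a median of 0.99 against -0.01. In chronic colitis 1 of 32 was called higher, beside 0.609% of all genes, with a median of 0.49 against 0.01. Among the calls, Ifit2, Ifit3, Oas3, Cmpk2 and Usp18 were under the level set by the low-count filter in both control libraries. They passed it through treated libraries, so their calls are no support for a change. The log2 fold change was above 0 for 31, 32 and 25 of the 32 members in acute colitis, food allergy and chronic colitis. Without Ly6a, Ifi27l2a and Bst2 the sum was 1038.1 to 1108.5 CPM in control, 1968.4 to 2288.3 CPM in acute colitis, 1295.6 to 1790.1 CPM in chronic colitis and 2071.7 to 2161.0 CPM in food allergy.

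Ifi27l2a, a small mitochondrial and membrane protein gene, had the lowest p of the members in acute and chronic colitis in these cells. It was at 204 CPM in WT control, 1687 CPM in acute colitis, 1558 CPM in chronic colitis and 1195 CPM in food allergy, and at 652, 1836, 2199 and 1947 CPM in App NL-G-F mice in the same order. Every treated library was above both controls, and App NL-G-F control was above WT control. The log2 fold change was 2.19 (SE 0.30, adjusted p = 0.000941) in acute and 2.24 (SE 0.29, adjusted p = 0.00147) in chronic colitis, and 1.99 (SE 0.29, adjusted p = 0.00561) in food allergy, by edgeR's quasi-likelihood test. In WT mice Bst2, which tethers virions, was at 128, 263, 188 and 226 CPM, and in App NL-G-F mice at 127, 315, 230 and 221 CPM. Control was lowest in both genotypes. The change of Bst2 was called in acute colitis (1.12, SE 0.18, adjusted p = 0.00282) and in food allergy (0.82, SE 0.17, adjusted p = 0.0319), and not in chronic colitis (0.68, SE 0.18, adjusted p = 0.0878).

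Members that bind foreign RNA or start its decay are given next, and of these Ifit1, Ifih1, Dhx58 and Zbp1 were not called. Ifit3 was at 11.5, 55.1, 8.56 and 44.6 CPM in control, acute, chronic and allergy WT mice, and at 4.47, 65.9, 3.07 and 29.1 CPM in App NL-G-F mice. Acute colitis and food allergy were above control, and chronic colitis was not. Ifit3 rose by 2.68 on the log2 scale (SE 0.40, adjusted p = 0.0017) in acute colitis and by 2.13 (SE 0.34, adjusted p = 0.00942) in food allergy, while chronic colitis gave -0.53 (SE 0.75, adjusted p = 0.818). Ifit2, its neighbour on chromosome 19, was at 10.0, 5.90, 2.85 and 39.2 CPM in WT and at 4.47, 9.42, 0.0 and 20.4 CPM in App NL-G-F mice. Food allergy alone stood above control (2.01, SE 0.37, adjusted p = 0.0209, edgeR's quasi-likelihood test). Outside food allergy no library was above 10.0 CPM, so Ifit2 passed the filter on low counts through the food allergy libraries alone. Its call could therefore only be higher and is no support for a change. Oasl2, an Oas-like protein, was at 29.0, 96.4, 37.1 and 87.8 CPM in WT and at 42.4, 104, 82.9 and 98.9 CPM in App NL-G-F mice. Oas3 was at 9.68, 35.4, 37.1 and 37.1 CPM in WT and at 14.9, 61.2, 30.7 and 33.4 CPM in App NL-G-F mice. Both genes were above control in acute colitis and food allergy in each genotype. Oasl2 rose by 1.5 (adjusted p = 0.00441) and 1.43 (adjusted p = 0.00666) on the log2 scale, and Oas3 by 1.87 (adjusted p = 0.0142) and 1.62 (adjusted p = 0.0279). In chronic colitis Oas3 was above both controls as well but missed the threshold (1.49, SE 0.42, adjusted p = 0.101).

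Among the regulators, Irf7 was at 88.6, 199, 108 and 199 CPM in WT and at 76.7, 207, 212 and 179 CPM in App NL-G-F mice. Acute colitis and food allergy were above control in both genotypes, with log2 fold changes of 1.24 (SE 0.24, adjusted p = 0.00963) and 1.19 (SE 0.22, adjusted p = 0.0197). WT chronic colitis stayed near control for Irf7 and App NL-G-F chronic colitis did not. Irf9 and Stat2 were not called. Isg15 was at 112, 153, 68.5 and 240 CPM in WT and at 74.4, 207, 126 and 215 CPM in App NL-G-F mice, and was called in food allergy (1.27, SE 0.23, adjusted p = 0.0202). Slfn5, a Schlafen protein, was at 97.5, 189, 148 and 209 CPM in WT and at 119, 198, 147 and 215 CPM in App NL-G-F mice, with no overlap between control and treated libraries. Its changes were 0.81 in acute colitis (adjusted p = 0.0256) and 0.99 in food allergy (adjusted p = 0.0107). Bst2, Isg15, Slfn5 and Ifit3 are among the genes whose promoter letters are printed above, as is Oas1a, which was called in food allergy (1.21, SE 0.23, adjusted p = 0.0255). Trim30a, Slfn8 and Stat2, also printed, were called in no comparison. Irf7, Oasl2, Xaf1 and Cmpk2 were called in monocytes though their promoters held no match of GAAANNGAA.

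Xaf1, an apoptosis factor, was at 33.9, 84.6, 57.1 and 90.5 CPM in WT and at 32.8, 80.0, 86.0 and 84.3 CPM in App NL-G-F mice, and had the lowest p of the members in food allergy (1.4, SE 0.20, adjusted p = 0.0054). Rtp4, a receptor transporter that limits the interferon response, was at 26.4, 72.8, 25.7 and 73.6 CPM in WT and at 48.4, 127, 92.1 and 96.0 CPM in App NL-G-F mice. Xaf1 was above control in every treated library, and Rtp4 in all but WT chronic colitis. Parp14, a mono-ADP-ribosyltransferase, was at 33.5, 92.4, 51.4 and 60.8 CPM in WT and at 49.1, 98.9, 73.7 and 61.1 CPM in App NL-G-F mice, and was called in acute colitis alone (1.22, SE 0.24, adjusted p = 0.01). Whether acute colitis or food allergy differed from chronic colitis was not tested. Cmpk2 (2.57, adjusted p = 0.0182) and Usp18 (1.71, adjusted p = 0.025) were also called in acute colitis. In all, 9 members were called in both acute colitis and food allergy, 75% of each list, but the lists share their control libraries. Ifit3 and Oas3, which passed the low-count filter through treated libraries, are among them.

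**Figure D4:**
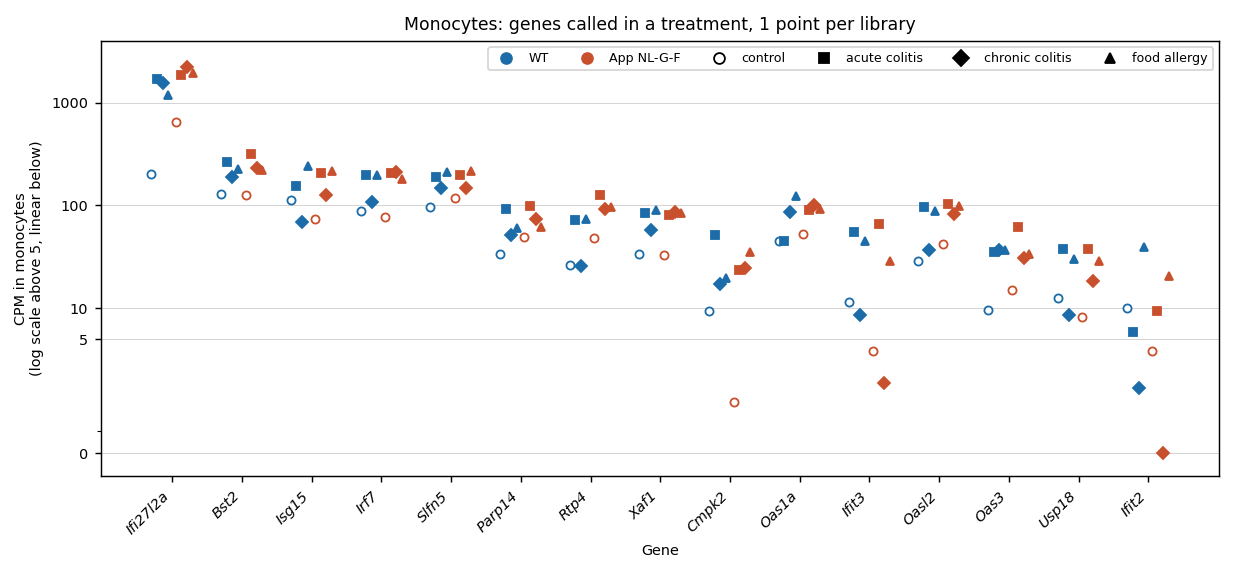
CPM in monocytes of the 15 members called there in any treatment, 1 point per library, coloured by genotype and shaped by condition, on an axis that is logarithmic above 5 CPM. The open control points lie lowest for Ifi27l2a (204 and 652 CPM), Bst2 and Xaf1, while chronic colitis lies at or below control for Ifit3.

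Few cells carry these values. Monocytes were 342, 69, 51 and 175 cells in control, acute, chronic and allergy WT mice, and 174, 40, 47 and 90 cells in App NL-G-F mice. With cells thinned to 1500 UMIs, the share with at least 3 members was 22.6% (exact 95% interval 18.3 to 27.4%, counting error only) in WT control and 34.1% (27.0 to 41.8%) in App NL-G-F control, against 63.8% and 57.5% in acute colitis, 48.0% and 56.5% in chronic colitis and 52.9% and 57.3% in food allergy. By hashtag group, 9 groups of treated mice with at least 20 monocytes lay between 3419.0 and 5039.2 CPM, with a median of 3892.6 CPM. The 4 control groups lay at 975.9 and 1644.1 CPM in WT and at 1353.2 and 3857.0 CPM in App NL-G-F mice. The last, of 40 cells, was therefore within the treated range. All 13 groups belonged to the high immediate-early set.

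**Figure D5:**
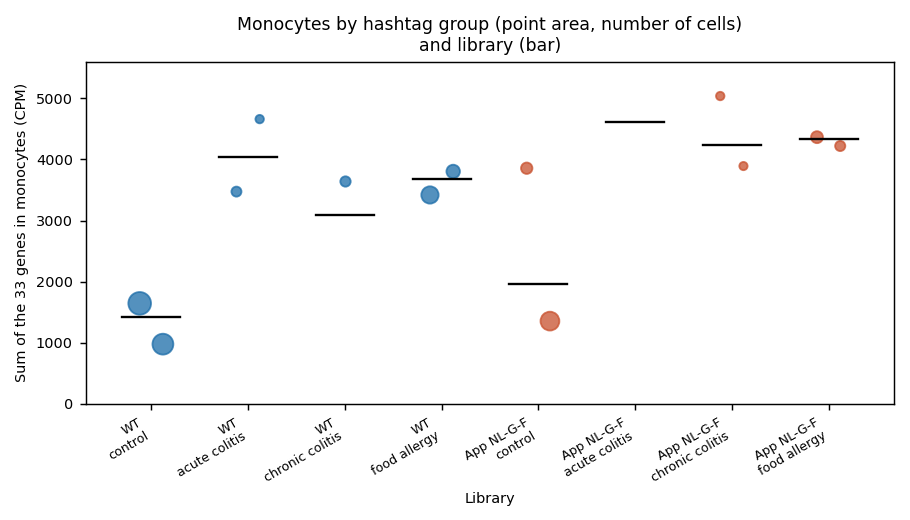
Sum of the 33 genes in monocytes (CPM) by hashtag group with at least 20 monocytes (points, area by number of cells) and by library (bars). The groups of treated mice lie from 3419.0 to 5039.2 CPM, and 1 of the 4 control groups, at 3857.0 CPM, lies among them, while App NL-G-F acute colitis had no group of that size.

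The control monocytes also differed from the treated ones in what marks them. The summed level of the 7 monocyte markers used for naming was 11437.6 to 13921.5 CPM in the control and 4223.5 to 7819.4 CPM in the treated libraries. Chil3 alone gave 8245.0 of 13921.5 CPM in WT control and 576.2 of 5218.8 CPM in WT acute colitis. Between these libraries Vcan, F13a1 and Fn1 were also lower in acute colitis. The markers Ly6c2 (1131.1 CPM in control, 1409.9 CPM in acute colitis), Ccr2 (730.3 and 763.0 CPM) and Csf1r were higher, so the list did not fall as a set. Chil3, a chitinase-like protein of inflammatory monocytes, was at 6192.3 to 8245.0 CPM in control and at 485.0 to 1458.2 CPM in treated libraries, and the acute-phase gene Saa3 at 1805.3 to 2319.9 and 9.4 to 228.3 CPM. Markers of macrophages (8 of 8 with UMIs) summed to 485.7 to 525.6 CPM in control and 85.6 to 414.6 CPM in treated libraries, and those of plasma cells (7 of 7) to 467.5 to 494.7 and 296.6 to 407.1 CPM. Neutrophil markers (8 of 8 with UMIs) summed to 2913.2 to 6231.0 CPM in control and, with overlap, 239.5 to 6639.0 CPM in treated libraries. Neutrophil precursor markers overlapped too, at 285.9 to 304.5 and 0.0 to 290.8 CPM. In WT acute colitis these lists were at 934.0 and 45.2 CPM. Neural markers summed to 27.9 to 35.7 CPM in control and 49.4 to 118.0 CPM in treated libraries, with Snap25, Slc1a2 and Cldn11 at 0. Immediate-early genes were at 11251.5 to 14154.1 CPM in control and 7653.9 to 10786.7 CPM in treated libraries. The part of these shifts in the members' change was not tested. Within the high immediate-early set alone the members called in monocytes were 9 in acute and 1 in chronic colitis, and 10 in food allergy. They were 8, 1 and 6 with DESeq2, 7, 1 and 6 without WT control and 13, 3 and 15 without App NL-G-F control. Without WT acute colitis 2 were called in acute colitis, and without App NL-G-F acute colitis 3. Without WT food allergy 1 was called in food allergy.

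Outside monocytes the calls were few and not of 1 direction. In gamma-delta T cells, which respond early at barriers, Ifi27l2a rose in acute colitis, the only member called higher there (0.166% of all genes were). It was at 18.1 and 20.1 CPM in WT and App NL-G-F control, 83.3 and 129 CPM in acute colitis, 41.3 and 20.6 CPM in chronic colitis and 52.7 and 35.9 CPM in food allergy (acute colitis 2.43, SE 0.34, adjusted p = 0.0033). Ly6a fell in the same comparison. It was at 767 and 534 CPM in WT and App NL-G-F control, 377 and 354 CPM in acute colitis, 234 and 205 CPM in chronic colitis and 539 and 311 CPM in food allergy. The change was -0.81 in acute colitis (SE 0.17, adjusted p = 0.031, with 0.626% of all genes called lower). In chronic colitis it was -1.58 (SE 0.17, adjusted p = 0.000197), and Ly6a was the only member among the 1.12% of genes called lower. Cmpk2, a nucleotide kinase, was at 9.54 and 5.73 CPM in control, 7.58 and 18.8 CPM in acute colitis, 35.4 and 36.5 CPM in chronic colitis and 45.7 and 29.9 CPM in food allergy. Its neighbour Rsad2, the antiviral enzyme viperin, was at 12.4 and 2.86 CPM in control, 1.52 and 2.68 CPM in acute colitis, 42.8 and 25.4 CPM in chronic colitis and 24.6 and 19.1 CPM in food allergy. Both were above control in chronic colitis and food allergy. In chronic colitis Cmpk2 (2.14, SE 0.44, adjusted p = 0.023) and Rsad2 (2.06, SE 0.45, adjusted p = 0.0356) were called higher, as 0.128% of all genes were. In food allergy Cmpk2 alone was called (2.20, SE 0.43, adjusted p = 0.0188), with 0.204% of all genes called higher. These rest on 14 and 15 UMIs of Cmpk2 and Rsad2 in the control libraries. Both control libraries were under the level set by the low-count filter, so both genes passed it through treated libraries. Their calls are therefore no support for a change. In the same cells neutrophil markers (8 of 8 with UMIs) summed to 6.7 to 94.5 CPM in control and 104.5 to 1007.9 CPM in treated libraries, and monocyte markers (7 of 7) to 333.1 to 342.4 and 401.5 to 557.3 CPM. In acute colitis the markers of gamma-delta T cells themselves were at 6280.6 to 7243.9 CPM against 7636.6 to 8360.4 CPM in control. In chronic colitis immediate-early genes were at 2744.0 to 4387.6 CPM against 5889.0 to 6434.4 CPM in control, and cycling markers at 69.3 to 77.7 against 15.8 to 29.6 CPM. Marker lists of several other types also did not overlap between control and a treatment. The part of these values in the calls was not tested.

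Ly6a was also lower in dendritic cells. In conventional type 2 dendritic cells it was at 234 and 358 CPM in WT and App NL-G-F control, 72.1 and 163 CPM in acute colitis, 101 and 134 CPM in chronic colitis and 206 and 345 CPM in food allergy. Both colitis conditions were below control in both genotypes, and food allergy was near it. The change was -1.34 in acute colitis (SE 0.19, adjusted p = 0.00666) and -1.31 in chronic colitis (SE 0.19, adjusted p = 0.0137). Ly6a was the only member called, where 0.751% and 0.400% of all genes were called lower. In conventional type 1 dendritic cells, which present antigen to CD8 T cells, Ly6a was at 147 and 113 CPM in control, 84.2 and 94.0 CPM in acute colitis, 61.8 and 61.4 CPM in chronic colitis and 141 and 150 CPM in food allergy (chronic colitis -0.98, SE 0.15, adjusted p = 0.00897), the only member among the 0.642% of genes called lower. Other values moved with these calls. In type 2 cells the markers of the type itself were at 4238.7 to 4325.0 CPM in control, 3401.5 to 3601.8 CPM in acute and 2666.6 to 2825.3 CPM in chronic colitis, and neutrophil markers at 16.5 to 55.3, 161.5 to 227.5 and 101.5 to 6452.1 CPM. In type 1 cells monocyte markers were at 197.4 to 260.2 CPM in control and 325.4 to 408.0 CPM in chronic colitis. Their part in the calls was not tested. In the same comparison 3 of 32 members had a log2 fold change above 0, the median was -0.60, and the sum of the 33 genes was 1823.1 to 2857.8 CPM in control and 1458.4 to 1635.4 CPM in chronic colitis. In B cells 2 of 29 members were called higher in chronic colitis, beside 0.458% of all genes. Ifi27l2a was at 185 and 511 CPM in WT and App NL-G-F control and at 658 and 950 CPM in chronic colitis (1.3, SE 0.27, adjusted p = 0.0498). Oas2, an oligoadenylate synthetase, was at 0 in both control libraries, at 3.26 and 4.08 CPM in acute colitis, 5.19 and 5.60 CPM in chronic colitis and 2.88 and 2.88 CPM in food allergy. Its 27 UMIs in chronic colitis against 0 in control gave a ratio of 7.43 with a floor of 3 counts over the control group. With 0 control UMIs, Oas2 passed the filter on low counts through treated libraries alone. Its call (adjusted p = 0.0273, edgeR's quasi-likelihood test) could therefore only be higher and is no support for a change. In these B cells the median UMI number per cell was 2042.5 to 2076.0 in control and 2523.0 to 2578.5 in chronic colitis, and markers of developing B cells were at 1529.1 to 1981.5 and 2223.3 to 2427.5 CPM. The part of these differences was not tested.

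In food allergy the members leaned upward in many types without passing the adjusted threshold. The median log2 fold change was above 0 in 16 of 17 types, from -0.06 in CD4 T cells to 0.99 in monocytes, against 7 of 17 types in acute and 10 of 17 in chronic colitis. At an unadjusted p under 0.05, 102 of 473 tests were higher (21.6%) and 2 lower (0.423%), beside 3.03% and 2.85% of all tests over genes. In acute colitis the shares were 8.67% higher and 11.8% lower, beside 3.86% and 3.79%. In chronic colitis they were 10.4% and 5.92%, beside 3.65% and 3.53%. The sum of the 33 genes in food allergy was above both control libraries in 8 of 17 types and below them in 0, with a median ratio of means of 1.19. Without Ly6a, Ifi27l2a and Bst2 it was above both in 5 of 17 types and below in 0, with a median ratio of 1.05. This smaller sum was above both controls in 2 types and below in 6 in acute colitis, and in 5 and 4 in chronic colitis. In conventional type 2 dendritic cells the sum of the 33 genes was 2133.7 and 2727.7 CPM in WT and App NL-G-F control and 3301.8 and 4078.8 CPM in food allergy. There 15 of 32 members were higher at an unadjusted p under 0.05, beside 251 of 8258 genes, with 0 members past the adjusted threshold. In these libraries monocyte markers were at 919.0 and 948.0 CPM in control and 1343.5 and 1273.4 CPM in food allergy, neutrophil precursor markers at 52.2 and 32.9 against 329.9 and 242.0 CPM, and the type's own markers at 4238.7 and 4325.0 against 3971.0 and 3380.1 CPM, and their part was not tested. Isg15 in these cells was at 105 and 112 CPM in control and 176 and 239 CPM in food allergy (0.92, SE 0.17, adjusted p = 0.153). In neutrophils the sum was 510.5 and 560.0 CPM in control and 1050.4 and 965.7 CPM in food allergy, with Bst2 at 17.4 and 15.6 CPM in control and 72.8 and 78.9 CPM in food allergy (2.17, SE 0.50, adjusted p = 0.915). Droplets without cells had higher sums, 2294.9 and 1594.2 CPM in control and 1707.8 and 1914.5 CPM in food allergy. Neutrophils also join several clusters. The part of free RNA and of the mix of clusters was not tested. The food allergy comparisons use the same 2 control libraries in every type. In plasmacytoid dendritic cells the sum in acute colitis, 5357.2 and 5158.8 CPM, lay below control, 6234.3 and 6779.0 CPM, while 0 of 18 members were called. At an unadjusted p under 0.05, 6 of 18 were lower, beside 149 of 7508 genes.

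Other genes of the pathway were read from lists of 94 genes, of which 67 could be tested in at least 1 type, 935 tests per comparison. Among them 14 were called higher and 10 lower in acute colitis, where 0.578% of all tests were called, and 3 and 12 in chronic colitis, beside 0.403%. In food allergy 11 and 2 were called, beside 0.248%, and between genotypes 2 were higher and 4 lower in App NL-G-F mice, beside 0.204%. Of the interferon-stimulated genes beyond the 33 members, 10 of 19 tested in monocytes rose in acute colitis, beside 2.33% of all genes, and 8 in food allergy, beside 0.550%. Samd9l, a restriction factor of poxviruses, was at 13 and 13.4 CPM in WT and App NL-G-F control and 62.9 and 65.9 CPM in acute colitis (2.23, SE 0.29, adjusted p = 0.000767), and Phf11b rose by 2.29 (SE 0.32, adjusted p = 0.00121). Rnf213 (1.25, adjusted p = 0.00173) and Lgals3bp (1.56, adjusted p = 0.0108) rose there too. Ciita, the master regulator of MHC class II, which interferon gamma induces, rose by 2.27 (SE 0.32, adjusted p = 0.00121, edgeR's quasi-likelihood test) in the same monocytes. Samd9l and Ciita, among others, were under the level set by the low-count filter in both control libraries and passed it through treated libraries. Their calls are therefore no support for a change. The brake Socs3, which cytokines such as interleukin 6 induce, fell in acute colitis in monocytes (-1.90, SE 0.20, adjusted p = 0.000153), macrophages (-1.67, adjusted p = 0.00321) and conventional type 1 dendritic cells (-3.06, SE 0.22, adjusted p = 5.36e-05). Myd88, an adaptor of Toll-like receptors, fell in conventional type 1 dendritic cells by 1.38 (adjusted p = 0.000518), and Tmem173, which encodes the DNA sensor adaptor STING, by 1.39 (adjusted p = 0.00147). In chronic colitis the same cells had lower Socs3 (-2.17, adjusted p = 0.000682), Myd88 (-1.19, adjusted p = 0.00125) and Tmem173 (-1.61, adjusted p = 0.00121), and monocytes lower Socs3 (-1.96, adjusted p = 0.00021). Socs3 was also lower in type 1 dendritic cells in food allergy (-2.37, adjusted p = 0.00101). Ifngr1, the receptor chain for interferon gamma, was lower in ILC2 in every treatment, by 1.36 in food allergy (adjusted p = 0.000679).

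Between genotypes, 6 tests of pathway genes were called. Socs1, which blocks Jak kinases, was higher in App NL-G-F mice in ILC2, at 354 to 485 CPM against 178 to 305 CPM in WT (0.76, SE 0.11, adjusted p = 0.00425), and in gamma-delta T cells (0.65, SE 0.11, adjusted p = 0.00992). Socs3 was lower in NK cells (-0.95, SE 0.14, adjusted p = 0.0125) and in the cluster named by its leading genes Cd3d and Il2rb (-0.87, SE 0.15, adjusted p = 0.00822). The guanylate-binding protein gene Gbp2 was lower in gamma-delta T cells (-1.11, SE 0.18, adjusted p = 0.00761). Ifit3b, a near copy of Ifit3, was the sixth, lower in gamma-delta T cells with overlapping genotypes (0.0 to 36.9 CPM in WT and 0.0 to 1.59 CPM in App NL-G-F). It passed the filter on low counts through WT libraries alone, so its call is no support for a change. Reads from both copies may also be split between them.

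Transcripts of the ligands themselves were almost absent. The 14 interferon alpha genes had 0 UMIs in 285678725, Ifnb1 had 6, and all type I and III ligands together had 37. Ifng had 2984 UMIs and was highest in NK cells (74.2 CPM), CD4 T cells (68.8 CPM), the Cd3d and Il2rb cluster (62.9 CPM) and CD8 T cells (54.5 CPM). The receptor chains were most abundant in plasmacytoid dendritic cells, with Ifnar1 at 162.3 CPM and Ifnar2 at 466.9 CPM, against 52.1 and 214.5 CPM in monocytes.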

How the data were processed

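The authors deposited, per library, a UMI count matrix of all droplets (10x 5′ gene expression, 8 libraries of sorted CD45.2+ brain cells), made with Cell Ranger 6.1.2 and mm10 per the labels, while the file headers name Cell Ranger 4. Counts were used as deposited. Cells were called from droplets against the free RNA of barcode ranks 45000 to 90000 (FDR 0.01, at least 500 UMIs tested, 1000 simulations, 3000 expected cells) and kept from 200 detected genes upward if mitochondrial UMIs were no more than 5%. Clusters in which over 50% of cells carried several hashtags stayed unnamed, and other such cells were kept, with no doublet caller. Cells were clustered with scanpy 1.11.5 and leidenalg 0.10.2 (2000 variable genes without the members, 30 components, 20 neighbours, resolution 1.0), clusters were named from at least 3 markers, and each cell needed at least 2 markers of its type. Counts were summed per library and type (at least 20 cells) and tested with edgeR 4.0.16 in R 4.3.3, by the quasi-likelihood test with TMM scaling and edgeR's filter on low counts, in an additive fit of genotype and condition over 8 libraries with 3 residual degrees of freedom. Benjamini-Hochberg adjustment ran over all genes of a type with a threshold of 0.05. Fold changes are on the log2 scale. The script was tested on simulated counts. Alternatives were DESeq2 1.42.0, other scaling, no low-count filter, other cell sets and leaving out each library.

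Each group is 1 library, so p-values rest on the spread between libraries that differ in genotype or condition, and an interaction could not be tested. Hashtags are not tied to animals by the labels and were used for description. The study's design pools mice within a library. Members and lists were chosen with earlier results of these data known. Values in every library are given for the 8 most abundant members, in the tested type where each is highest, for members past the threshold between genotypes (at most 20) and for at most 10 per treatment by adjusted p, and pathway genes are named for at most 12 by adjusted p, of which 1 is not reported here. Promoters are shown for at most 8 members with a motif match. Depth per library, 25621465 to 54618574 UMIs in cells, sets the precision, and intervals and floors cover counting error only.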

Additional observations from a re-analysis of the deposited data

Results flagged for a closer look

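In CD4 T cells the sum of the 33 genes was 3395.9 CPM in WT chronic colitis, below the other WT libraries (4453.0 to 4637.4 CPM), with a gap of 0.851 of the whole range. In monocytes it was 1965.3 CPM in App NL-G-F control, below the other App NL-G-F libraries (4234.3 to 4609.6 CPM), with a gap of 0.858. Both stood out because the gap was above the 95% critical value for 4 samples in Dixon's test. Of 39 groups examined 2 did so, and chance gives about 1 in 20.

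In CD8 T cells the 3 treated WT libraries had a sum of 1.07 to 1.52 times their control, and the 3 treated App NL-G-F libraries of 0.659 to 0.936 times theirs, so the mean ratios differed 1.61-fold. In macrophages the WT ratios lay between 1.18 and 1.71 and the App NL-G-F ratios between 0.781 and 0.891, a 1.68-fold difference, with 2595.9 CPM in WT control and 4634.8 CPM in App NL-G-F control. In both of these types every treated WT library moved up and every treated App NL-G-F library down. Conventional type 1 dendritic cells, also among the 17 tested types, had the reverse order. Their ratios for acute colitis, chronic colitis and food allergy were 0.683, 0.51 and 0.8 with WT. With App NL-G-F they were 1.07, 0.897 and 1.4, all above the WT ratios. These differences were not tested, since each genotype and condition is 1 library and the treated libraries of a genotype share 1 control.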

How the results depend on the processing

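Counts of called members in genotype and in acute colitis, chronic colitis and food allergy were 1, 15, 8 and 13. With DESeq2 they were 2 for genotype, 5 for chronic colitis and 7 for food allergy. With no scaling by TMM the genotype count was 3. Without the filter on low counts, where all genes of a type enter, they were 19, 44, 31 and 46. With hashtag groups as units they were 3, 3, 2 and 0, and in the low immediate-early set, where only 3 types and 65 tests could be fitted, 4, 3, 0 and 0. The genotype count was 0 with genotype alone and without the marker gate, and 2 in cells with 1 hashtag. Leaving out each library in turn gave 0 to 5 for genotype, 6 to 29 for acute colitis, 2 to 31 for chronic colitis and 1 to 28 for food allergy, and leaving out a library also leaves 1 sample in an arm, assumed to vary like the others. The share of plasmacytoid dendritic cells with at least 3 members (60.8%) was 20.6% for at least 5 members, 45.1% at 1000 UMIs and 93.2% without thinning. The causes were not tested. The 37 single calls did not change direction in the alternatives that gave them a value, but with DESeq2 21 were kept, 10 lost and the others had no value, and with hashtag groups as units 2 were kept, 3 lost and the others had no value. Without WT control 20 of the 37 were lost. The sum in plasmacytoid dendritic cells was 5831.9 to 6742.2 CPM over the cell sets. Without TMM the median of all genes moved by -0.28 to 0.11 on the log2 scale. No paired analysis was possible because each group is 1 library and the labels give no replicate number. The additive fit already compares genotypes within conditions, and fitting genotype alone drops that. Monocytes were too few to be fitted in the low immediate-early set.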
